A study of Drosophila melanogaster with 36 samples.

Results

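The genes described here encode the proteins of the mitochondrial ribosome of Drosophila melanogaster, called mRp genes below. They were chosen by name, as all genes whose current symbol starts with mRpL (large subunit) or mRpS (small subunit) and that had a probe set with a single gene symbol, and where a gene had several, the one with the highest mean signal was used. This gave 64 genes, 43 mRpL and 21 mRpS, of 10843 genes with such a probe set and of 73 mRpL and mRpS symbols in the RefSeq gene table. All 64 passed the filter on dim probe sets, so no gene was left out of a count. The other 9 symbols were not measured by a probe set of their own: mRpL27, mRpL34, mRpL37, mRpL53, mRpS5, mRpS10, mRpS14, mRpS21 and mRpS23. Of these, mRpS10 shares a probe set with another gene symbol, CG34316, and that probe set was not counted. The 64 genes lie on all large chromosome arms, 10 on 2L, 10 on 2R, 16 on 3L, 18 on 3R and 10 on X.

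The study asked how gene expression of adult flies changes with time after heat, and whether a line selected for heat resistance differs from a nonselected line. RNA was taken from whole adult females of both lines, either untreated or 0.25, 1, 2, 4, 8, 16, 32 or 64 h after 1 h at 36 °C. There were 36 arrays in 18 groups, with biological replicates 1 and 2 of every line at every time. The labels give neither the age of the flies, nor the time of day, nor whether the lines were selected in several populations, and the untreated flies were labelled with no time. A difference between a late and an early time may come from time since heat, from age or from time of day, which cannot be told apart. With nothing said of separate cultures, the p-values below measure the spread between these arrays, which may in part be technical.

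Mitochondrial ribosomes translate the few proteins encoded by mitochondrial DNA, which are subunits of the oxidative phosphorylation complexes. The ribosomal proteins themselves are encoded in the nucleus, made on cytosolic ribosomes and imported. Some belong to families shared with the bacterial ribosome, and others are found in mitochondrial ribosomes only. In flies, loss-of-function alleles of such genes are known for developmental delay, small body size and, for tko, the gene of a small subunit protein, for seizures after mechanical shock.

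Values are intensities that were background-corrected and normalized by the authors, and all levels and differences are given on the log2 scale. The number of arrays limits the precision, and array medians lay between 43.5 and 52.0 intensity units. Replicate numbers differed in the log2 ratio of 3′ to 5′ probe sets of 3 control transcripts. It was 1.83 to 2.60 on replicate 1 arrays and 1.26 to 1.79 on replicate 2 arrays. The labels call them biological replicates and do not give the source of this difference. The late against early and line results are therefore also given within each replicate number, whereas the comparisons with untreated flies are not. The selected replicate 2 array at 32 h stood apart by markers of the male reproductive tract, which had a median log2 level of 6.79 there and at most 3.99 on the other 35 arrays. Markers of the fat body had a median log2 level of at least 12.6 on all arrays. Those of the ovarian germline had 9.17 on the selected replicate 2 array at 32 h, their lowest level, and at least 9.78 on the other 35.

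The mRp genes were well expressed and steady. Their mean log2 signal over the 36 arrays had a median of 8.45, with a range from 6.94 to 10.38, against a median of 7.65 for all 8199 probe sets tested. The median of the large subunit genes was 8.43 and that of the small subunit genes 8.61. Levels of different probe sets are not comparable as transcript numbers, so the order of the genes describes signal only. The highest mean signals were those of mRpS7 (10.38) and mRpS11 (10.02), both of the small subunit and of bacterial families, and mRpL12 (10.09), whose bacterial counterpart forms the stalk that recruits translation factors. They were followed by mRpL36 (9.84) and mRpL9 (9.50). The lowest were mRpL22 (6.94), mRpL3 (7.04), mRpL41 (7.15), mRpL40 (7.44) and mRpL11 (7.48). For mRpL11 and mRpL12 a second probe set was near the bottom of the scale, with means of 3.34 and 2.84, and was not tested.

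The spread of an mRp gene was smaller than that of a typical probe set. The SD over the 36 arrays had a median of 0.17 log2 units for the 64 genes and 0.24 for all probe sets tested, and the distance between the lowest and highest array had a median of 0.72 against 1.04. The steadiest were mRpL1 (SD 0.11), mRpS29 (0.11), whose mammalian counterpart is the GTP-binding protein DAP3, and mRpS7 (0.12). The most variable was mRpL33 (SD 0.40), followed by mRpS33 and mRpL55 (0.32 each) and mRpL3 (0.28). The variation of mRpL33 went with the replicate number, since its 18 replicate 1 arrays lay between 9.11 and 9.93 and its replicate 2 arrays between 8.57 and 9.24. These ranges overlapped between 9.11 and 9.24.

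No mRp gene differed from untreated flies at any single time after heat, at an adjusted p below 0.05 from limma over all 8199 probe sets, 4 arrays against 4, in the fit without a term for the replicate number. With that term 1 gene was called, mRpS11 at 16 h (adjusted p 0.0306 in limma), where 4.87% of all probe sets were. Without it, of all probe sets tested, 0.756% were called at 0.25 h, 1.27% at 1 h, 1.17% at 2 h, 0.354% at 4 h, 1.06% at 8 h, 2.39% at 16 h, 1.1% at 32 h and 3.57% at 64 h, so that a list of 64 at the background rate would hold few calls. At an unadjusted p below 0.05 the counts were 1, 1, 1, 0, 1, 2, 4 and 2 genes in the order of the times, and the shares of all probe sets were 5.92%, 8.24%, 6.85%, 4.54%, 9.1%, 11.7%, 13.5% and 14.2%. None of the counts was above its background. The 95% interval of the change lay within 1.5-fold in both directions for 60 to 62 of the 64 genes at each time, against 60.2% to 71.7% of all probe sets. The median change of the 64 genes was -0.02 at 0.25 h, 0.03 at 1 h, -0.01 at 2 h and 0.03 at 4 h, and then 0.11 at 8 h, 0.10 at 16 h, 0.09 at 32 h and 0.05 at 64 h. The median over all probe sets tested stayed between -0.02 and 0.04.

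From 8 h on most mRp genes had values slightly above untreated. At 8 h this was so for 59 of 64, at 16 h for 57, at 32 h for 55 and at 64 h for 44, against 50.3%, 51.6%, 46.1% and 50.4% of all probe sets. At 0.25 h it was so for 25 of 64. All 4 arrays lay above all 4 untreated arrays for 4 genes at 8 h, 4 at 16 h, 4 at 32 h and 5 at 64 h, and over all probe sets tested the shares were 5.89%, 6%, 3.92% and 5.46%. These shares of the mRp genes were near the background. The 8 comparisons share the untreated arrays, so their medians are not independent of each other.

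**Figure D1:**
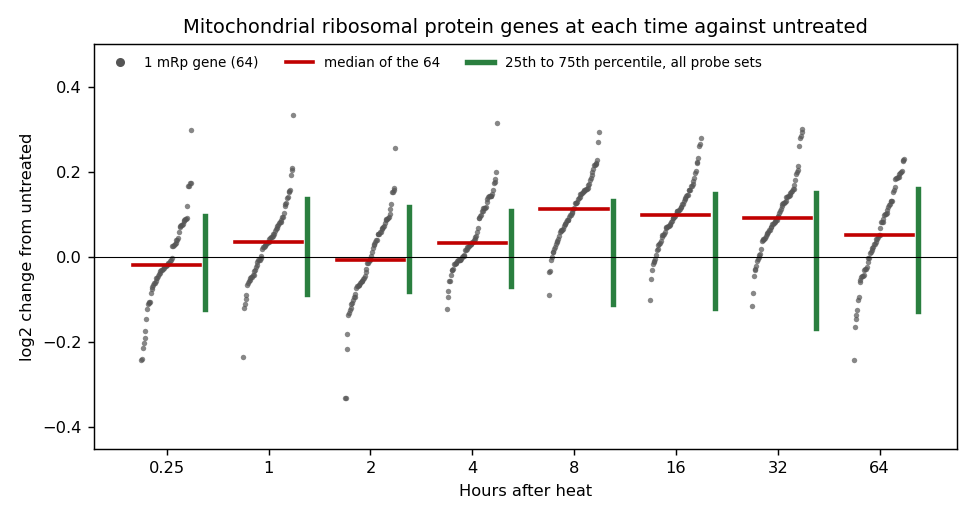
Log2 change of each mRp gene against untreated flies (vertical axis) at each time after heat (horizontal axis, hours, evenly spaced), with points for the 64 genes, a red line for their median and a green bar for the range from the 25th to the 75th percentile of the 8199 probe sets tested. The medians are close to 0 up to 4 h and between 0.05 and 0.11 from 8 to 64 h, inside the green bars.

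The genes with the smallest p at single times show how small the differences were. For mRpL51, a protein of the large subunit with no bacterial counterpart, the nonselected arrays at 2 h read 8.24 and 8.13 and the selected arrays 7.88 and 7.90, against 8.44, 8.40, 8.32 and 8.32 in untreated flies. All 4 arrays at 2 h were below all untreated arrays, and the difference of -0.33 (SE 0.10) had an adjusted p of 0.215 in limma. For mRpS11, whose bacterial counterpart lies on the platform of the small subunit, the arrays at 16 h read 10.11, 10.12, 10.13 and 10.31 and the untreated arrays 9.92, 9.96, 9.80 and 9.87, a difference of 0.28 (SE 0.09) with an adjusted p of 0.135 in limma without the replicate term. The groups did not overlap.

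For mRpL40 at 32 h the arrays read 7.59, 7.64, 7.63 and 7.59 and the untreated arrays 7.36, 7.35, 7.32 and 7.21, a difference of 0.30 (SE 0.10) with an adjusted p of 0.176 in limma. For mRpS31 at 64 h they read 8.96, 8.99, 8.93 and 8.93 against 8.73, 8.57, 8.87 and 8.75, a difference of 0.22 (SE 0.08) with an adjusted p of 0.156 in limma. Both genes encode proteins specific to mitochondrial ribosomes, and in both comparisons the arrays of the 2 groups did not overlap. At 0.25 h mRpL19 was split by line: its selected arrays read 7.83 and 7.66, its nonselected arrays 8.26 and 8.22, and the 4 untreated arrays between 8.19 and 8.25 (difference over both lines -0.24, adjusted p 0.412 in limma).

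Over the whole series, an F-test on all 8 times called 1 of the 64 genes, mRpL51, with an adjusted p of 0.00679 in limma, where 13.2% of all probe sets were called. The next were mRpL19 (adjusted p 0.0502), mRpS31 (0.0849) and mRpS22 (0.200). The mean level of mRpL51 was 8.37 ± 0.06 (SD, n = 4) in untreated flies, 8.17 ± 0.13 at 0.25 h, 8.13 ± 0.14 at 1 h and 8.04 ± 0.17 at 2 h. It was 8.24 ± 0.05 at 4 h, 8.37 ± 0.18 at 8 h, 8.48 ± 0.17 at 16 h, 8.55 ± 0.14 at 32 h and 8.50 ± 0.10 at 64 h. The lowest means thus fell in the first hours after heat and the highest from 16 h on, with untreated flies between them.

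Late and early times after heat were also compared directly. The 12 arrays at 16, 32 and 64 h were set against the 12 at 0.25, 1 and 2 h, with no untreated array. Of the 64 mRp genes 9 were higher late and 0 lower at an adjusted p below 0.05 in limma, where 18.2% of all probe sets were higher and 17.1% lower. In total 14.1% of the mRp genes were called, against 35.3% of all probe sets. All 9 calls went one way, 54 of the 64 genes had a positive difference against 45.4% of all probe sets, and the median difference was 0.07 against -0.03. At an unadjusted p below 0.05 there were 14 of 64, against 45.6% of all probe sets.

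mRpL51 rose most. Its 12 late arrays had a lowest, median and highest log2 level of 8.33, 8.53 and 8.66, and its early arrays 7.88, 8.12 and 8.34. Only the edges of these ranges overlapped, and the difference of 0.40 (SE 0.06) was 1.32-fold, with an adjusted p of 3.49e-05 in limma. mRpL2, whose bacterial counterpart lies beside the peptidyl transferase centre, had 8.28, 8.50 and 8.89 late and 7.95, 8.14 and 8.58 early. The difference was 0.31 (SE 0.09), 1.24-fold, with an adjusted p of 0.00924 in limma, and the ranges overlapped widely.

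mRpS9, whose bacterial counterpart reaches the decoding site of the small subunit, had 8.75, 8.95 and 9.24 late and 8.35, 8.66 and 8.98 early. The difference was 0.28 (SE 0.07), 1.22-fold, with an adjusted p of 0.00527 in limma. mRpS22, a small subunit protein specific to mitochondrial ribosomes, had 8.13, 8.49 and 8.86 late and 7.71, 8.33 and 8.55 early. Its difference was 0.22 (SE 0.07), 1.17-fold, with an adjusted p of 0.0236 in limma. Of the 4 genes it had the widest overlap, and its lowest array of all was the selected replicate 2 array at 0.25 h.

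**Figure D2:**
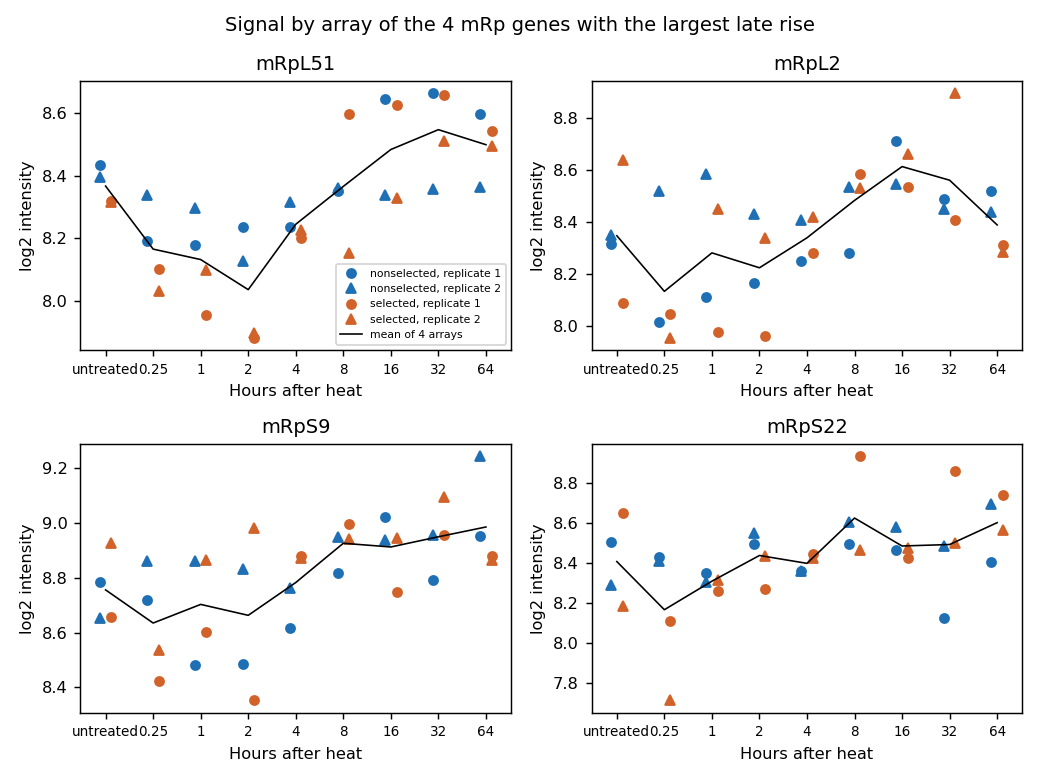
Log2 intensity (vertical axes) of mRpL51, mRpL2, mRpS9 and mRpS22 on each of the 36 arrays against hours after heat (horizontal axes, untreated first, evenly spaced), blue for the nonselected and orange for the selected line, circles for replicate 1 and triangles for replicate 2, with a line through the means of the 4 arrays. The mRpL51 means run from 8.37 in untreated flies through 8.04 at 2 h to 8.55 at 32 h, while single arrays of the other 3 genes scatter about flatter lines.

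The other 5 calls were smaller. The late minus early difference was 0.20 for mRpS31 (adjusted p 0.00196), 0.19 for mRpL28 (0.0147) and 0.17 for mRpS11 (0.0187). It was 0.17 for mRpL40 (0.0282) and 0.16 for mRpL19 (0.0169), all from limma. These differences are 1.11- to 1.15-fold. For mRpS31 the lowest, median and highest array was 8.72, 8.92 and 9.12 late and 8.53, 8.71 and 8.83 early. Its means were 8.73 ± 0.12 (SD, n = 4) in untreated flies, between 8.67 and 8.76 up to 4 h, and then 8.80 at 8 h, 8.85 at 16 h, 8.93 at 32 h and 8.95 at 64 h, so the late levels were also above the untreated mean. For mRpL28, a large subunit protein of a bacterial family, the late arrays lay between 9.40 and 9.74 and the early arrays between 9.13 and 9.56. Those of mRpS11 lay between 9.97 and 10.31 late and between 9.79 and 10.18 early. For mRpL19, whose bacterial counterpart lies at the interface of the subunits, the late arrays were all within 8.16 to 8.33 and the early arrays spread from 7.66 to 8.45. Its 5 lowest early arrays were all of the selected line. The mean of mRpL19 was 8.23 in untreated flies, 8.18 at 1 h, 8.17 at 2 h, 8.26 at 16 h and 8.29 at 32 h. At 16 and 32 h it was thus close to untreated. The lowest differences were those of mRpL11 (-0.16, adjusted p 0.118) and mRpL3 (-0.15, adjusted p 0.330).

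By role, the calls were spread over the ribosome. The large subunit had 5 of 43 and the small subunit 4 of 21, counted by symbol (the mammalian counterparts of mRpS18A and mRpS30, neither of which was called, sit in the large subunit). Families shared with bacteria had 5 of 39 and proteins specific to mitochondrial ribosomes 4 of 25, by a grouping written with the values known. None of the genes named for the stalk (mRpL10, mRpL12) was called.

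**Figure D3:**
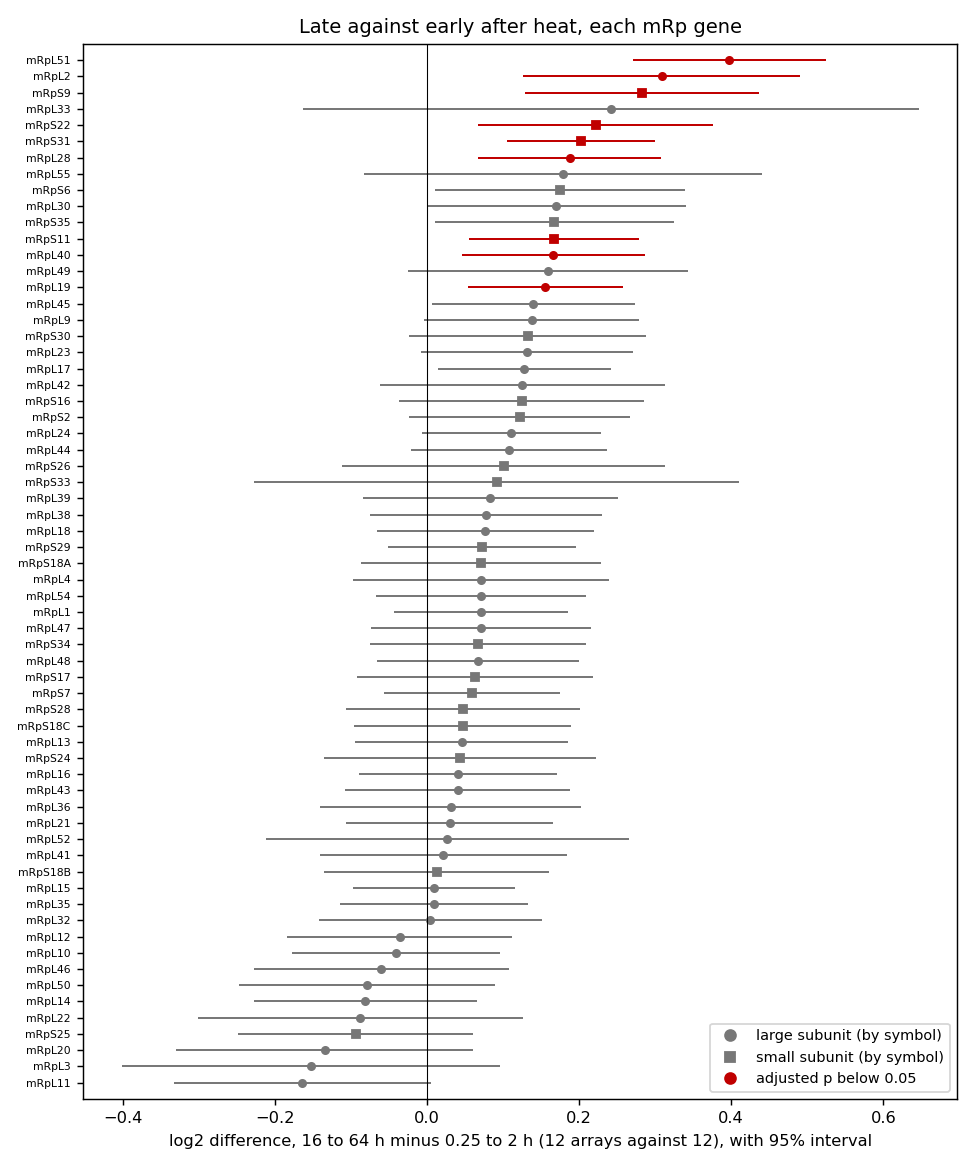
Difference in log2 level between late (16 to 64 h) and early (0.25 to 2 h) arrays for each of the 64 mRp genes (horizontal axis) with its 95% interval, ordered by size, circles for large and squares for small subunit genes. The 9 genes past the threshold are red and all lie above 0, from mRpL19 (0.16) to mRpL51 (0.40), and the intervals of mRpL33 and mRpS33 are the widest.

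The late difference is given by line and replicate number. In the selected line its median over the 64 genes was 0.22 on replicate 1 arrays and 0.08 on replicate 2 arrays. In the nonselected line it was 0.08 and -0.07. In the selected line 56 of 64 genes were higher late, against 47.2% of all probe sets, and in the nonselected line 32 of 64, against 44.1%, which is near the background. The medians of all probe sets were -0.02 and -0.04. The test of the difference between the lines called 0 of 64 genes, as it called 0% of all probe sets, with 62 of 64 genes above 0 and a median of 0.13 against 0.02. When each array was centred on its median, 52 of 64 were above 0 with a median of 0.07, against -0.04 over all probe sets. The smallest p was that of mRpL19, with a difference of 0.35 between the lines and an adjusted p of 1.00 in limma. An F-test of the line by time interaction also called 0 of 64, again with 0% over all probe sets, and 1 gene had an unadjusted p below 0.05, against 0.439% of all probe sets.

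Fitted on replicate 1 arrays alone, 22 mRp genes (34.4%) were called late against early, and on replicate 2 arrays alone 1, mRpL51 (1.56%). The shares of all probe sets called in these fits also differed, 49.8% and 16.5%. A positive difference in all 4 combinations of line and replicate was found for 9 of the 64 genes, against 24.9% of all probe sets with a difference of this kind. mRpL51 had 0.43, 0.10, 0.63 and 0.43 in nonselected replicate 1, nonselected replicate 2, selected replicate 1 and selected replicate 2. mRpS31 had 0.16, 0.14, 0.22 and 0.29, and mRpS9 had 0.36, 0.20, 0.40 and 0.17. In the same order mRpL28 had 0.29, 0.007, 0.22 and 0.23, and mRpS11 had 0.23, 0.001, 0.25 and 0.19. These 2 were thus close to 0 in nonselected replicate 2. The remaining genes of those called late against early were below 0 in a nonselected combination. In the same order mRpL2 had 0.48, -0.03, 0.42 and 0.37, and mRpS22 had -0.10, 0.16, 0.46 and 0.36. mRpL40 had 0.32, -0.07, 0.25 and 0.17, and mRpL19 had 0.01, -0.05, 0.28 and 0.38. Over the nonselected line as a whole the difference was 0.03 for mRpS22 and -0.02 for mRpL19, against 0.41 and 0.33 in the selected line.

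Other measures moved between the early and late times as well. The median log2 level of the chorion genes of late follicle cells was taken on each array. Its mean over the early arrays was 12.3, with single arrays from 11.4 to 13.3. Over the late arrays the mean was 7.76, with arrays from 3.59 to 12.6, and all 7 genes tested passed the test as lower. By the same mean of array medians, the ovarian germline markers went from 10.15 to 9.90, with 2 of 9 lower. The flight muscle markers went from 8.88 to 9.11, with 1 of 5 higher. Of all probe sets 17.1% were lower and 18.2% higher, so these 2 counts were near the background. The mean control 3′ to 5′ log2 ratio went from 1.92 to 1.81. Whether these had a part in the mRp result was not tested. In RNA of whole bodies, fewer cells of a type and less RNA per cell cannot be told apart. Without the selected replicate 2 array at 32 h, 11 mRp genes were called late against early, and the share of all probe sets in that fit is not given here.

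Other genes of the pathway give the surroundings of these values. Of the genes for oxidative phosphorylation, to which the products of mitochondrial ribosomes belong, 27 of 49 tested were higher late and 0 lower, with a median difference of 0.32. Among them were SdhB of complex II (0.52, 1.43-fold, adjusted p 0.0120), and ND-ASHI (0.51, adjusted p 0.00903) and ND-20 (0.49, adjusted p 0.00216) of complex I, all from limma. The list holds nuclear genes only. Their share was above the 18.2% of all probe sets, whereas that of the mRp genes was below it.

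Of 10 mitochondrial translation factors 2 were higher late, near the 18.2% of all probe sets. Both encode the elongation factor that brings aminoacyl-tRNA to the ribosome. mEFTu1 rose by 0.45 (1.37-fold, adjusted p 0.000576) and mEFTu2 by 0.40 (1.32-fold, adjusted p 6.95e-06). mEFTu2 was also called against untreated flies at 16, 32 and 64 h (1.34-, 1.34- and 1.40-fold), where 2.39%, 1.1% and 3.57% of all probe sets were. Of 31 cytosolic ribosomal protein genes tested, of 36 on the array and 92 in RefSeq, 2 were higher and 0 lower. Both counts were below the shares of all probe sets, 18.2% higher and 17.1% lower. The 2 higher genes were RpS26 (0.12) and RpL24-like, a relative of RpL24 that entered the list by its symbol.

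tko and bonsai, which encode small subunit proteins of the S12 and S15 families under other names, had late differences of 0.11 (adjusted p 0.230) and -0.01 (adjusted p 0.891) in limma. Of 13 mitochondrial aminoacyl-tRNA synthetases 2 were higher and 2 lower, and of 11 genes for mitochondrial DNA expression and replication 1 was higher and 1 lower. With 18.2% of all probe sets higher and 17.1% lower, none of these counts was clearly above its background. Of 8 mitochondrial chaperones and proteases, ClpP, the proteolytic subunit of a matrix protease, rose by 0.43. Its partner ClpX fell by 0.22 and the chaperonin Hsp60A fell by 0.15.

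The selected line was compared with the nonselected line over all 9 conditions, 18 arrays against 18. Of the 64 mRp genes 6 were lower in the selected line and 0 higher at an adjusted p below 0.05 in limma, where 6.06% of all probe sets were lower and 6.13% higher. With both directions counted, the mRp genes were called no more often than all probe sets. The 6 genes were mRpL50, mRpL10, mRpL15, mRpL16, mRpL17 and mRpL4. All were of the large subunit, to which 43 of the 64 genes belong. The median difference over the 64 genes was -0.09, with 56 of 64 below 0, against -0.05 over all probe sets. This result depended on how arrays were scaled. With each array centred on its median, 0 were lower and 1 was higher (mRpS31), with a median of -0.04, and with quantile normalization repeated, mRpL50 was lower and mRpS31 higher. Over all probe sets the share of higher among called went from 50.3% as deposited to 74.9% when centred and 60.2% after quantile normalization.

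mRpL50, a protein specific to mitochondrial ribosomes, had a lowest, median and highest level of 8.20, 8.76 and 8.91 in the selected line and 8.61, 8.98 and 9.10 in the nonselected line. The difference of -0.25 (SE 0.07) was 1.19-fold lower, with an adjusted p of 0.0191 in limma. mRpL10, whose bacterial counterpart anchors the stalk, had 8.00, 8.24 and 8.46 in the selected line and 8.28, 8.43 and 8.65 in the nonselected line. Its difference was -0.20 (SE 0.05), 1.15-fold lower, with an adjusted p of 0.0204 in limma. In both genes the ranges overlapped, and the selected line was lower at each of the 9 conditions.

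The other 4 were mRpL15 (-0.15, adjusted p 0.0232), mRpL16 (-0.18, 0.0242), mRpL17 (-0.14, 0.0439) and mRpL4 (-0.20, 0.0464). The ranges of the 2 lines overlapped in all 4. For mRpL16, for example, the selected arrays had a lowest, median and highest level of 8.21, 8.42 and 8.53 and the nonselected arrays 8.29, 8.54 and 8.81. For mRpL4 they had 7.14, 7.64 and 7.94 against 7.41, 7.82 and 8.00. Bacterial counterparts of mRpL16 and mRpL4 lie near the peptidyl transferase centre and along the exit tunnel. In total 6 mRp genes, mRpL4, mRpL10, mRpL16 and mRpL50 among them, were lower in the selected line at all 9 conditions, and 7.98% of all probe sets were. mRpL12, the partner of mRpL10 in the stalk, had -0.16 with an adjusted p of 0.0684 in limma.

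The line difference was larger in size on replicate 2 arrays, with no test of replicate 1 against replicate 2. On replicate 1 arrays the median over the 64 genes was -0.04, with 41 below 0 and 0 called when fitted alone, against 7.1% of all probe sets. On replicate 2 arrays it was -0.15, with 60 below 0 and 19 (29.7%) called, against 36.3% of all probe sets. Both differences were below 0 for 39 of 64 genes, against 38.6% of all probe sets. The medians and counts below 0 of all probe sets on each replicate number are not given here. The split is thus not shown to be particular to the mRp genes. For mRpL50 the line differences on replicate 1 and replicate 2 arrays were -0.16 and -0.33, for mRpL10 -0.09 and -0.30, and for mRpL17 -0.15 and -0.12. Markers of flight muscle differed in the same arrays. Their median log2 level was 6.78 to 8.58 on the 9 nonselected replicate 2 arrays and 9.69 to 10.60 on the 9 selected replicate 2 arrays, with no overlap. On replicate 1 arrays it was 8.92 to 9.95 in the nonselected and 8.12 to 10.56 in the selected line, which overlapped. Their part in the line difference of the mRp genes was not tested. Without the selected replicate 2 array at 32 h 4 genes were called. The count was 3 without the nonselected replicate 2 array at 4 h, 10 without the nonselected replicate 1 array at 1 h and 14 without the selected replicate 1 array at 32 h. The shares of all probe sets in these fits are not given here.

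**Figure D4:**
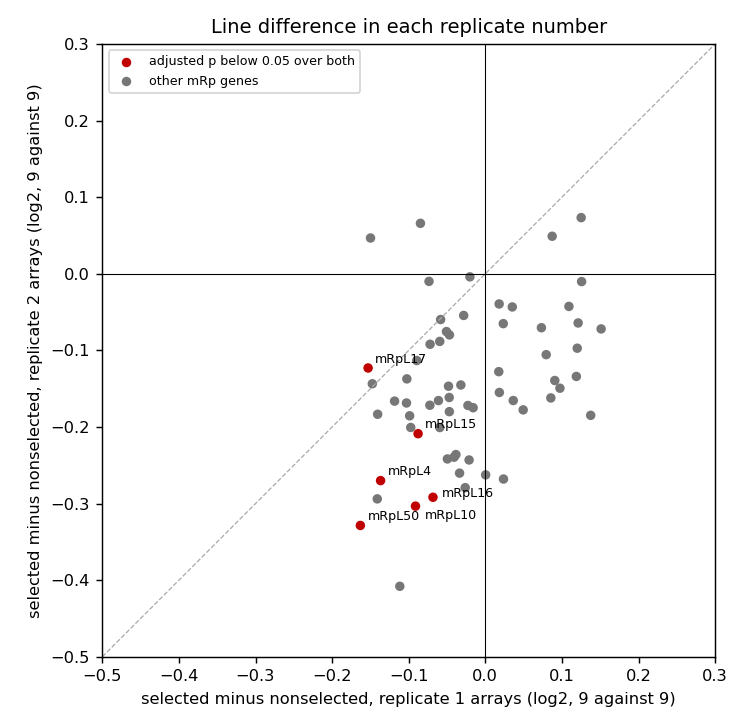
Difference in log2 level between the selected and the nonselected line for each of the 64 mRp genes, on replicate 1 arrays (horizontal axis, 9 against 9) and on replicate 2 arrays (vertical axis, 9 against 9), with the 6 genes past the threshold over both in red and equality as a dashed line. On the vertical axis 60 of 64 points lie below 0 and on the horizontal axis 41 lie to the left of it. The probe sets outside the 64 genes are not drawn.

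In untreated flies, 2 arrays against 2, no mRp gene was called between the lines, where 0% of all probe sets were. The median was -0.10, with 55 of 64 below 0, against -0.03 and 57.6% of all probe sets. By time, the median line difference was -0.33 at 0.25 h with 63 of 64 lower, -0.05 at 1 h with 45 lower, -0.17 at 2 h with 58 lower and 0.03 at 4 h with 18 lower. From 8 to 64 h it was between -0.09 and -0.02. Over all probe sets the median was -0.13 at 0.25 h with 64.5% lower, -0.02 at 1 h with 54.2% lower, -0.06 at 2 h with 61.5% lower and 0.01 at 4 h with 48.2% lower. At 32 h the medians of the mRp genes and of all probe sets were close, -0.09 and -0.08. The difference between the early and late periods is the interaction given above, which called no gene.

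Of the related lists, 2 of 49 oxidative phosphorylation genes were higher and 0 lower in the selected line, no more than the 6.13% of all probe sets. ATPsynbeta was 1 of them (0.41, adjusted p 0.00253). Of 10 translation factors 1 was lower, the ribosome recycling factor gene mRRF1 (-0.32, adjusted p 0.0133), and of 11 genes for mitochondrial DNA expression and replication 1 was lower, PolG1, which encodes the catalytic subunit of the mitochondrial DNA polymerase (-0.27, adjusted p 0.0472), all from limma. Of all probe sets 6.06% were lower, so 1 gene in lists of 10 and 11 was near the background.

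The mRp genes moved together from array to array. Across the 36 arrays the median Pearson correlation over their 2016 pairs was 0.39, against 0.02 over all pairs of probe sets tested. It was 0.48 over the 18 group means (0.04 for all pairs) and 0.34 over the deviations from the group means (0.02). Taking out the replicate number as well gave 0.46 (0.04). These are descriptions, since arrays share lines, times and processing, and genes of 1 array share its scaling.

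This joint movement can be read as the median, over the 64 genes, of the deviation from each gene's 36-array mean. The lowest arrays were the selected ones at 0.25 h, with -0.28 on replicate 2, where 6 of 64 genes were above their own mean, and -0.19 on replicate 1, where 9 were. The highest were the selected replicate 1 array at 8 h (0.18) and the nonselected replicate 2 array at 0.25 h (0.17), with 58 of 64 genes above their mean on each. So the extremes on both sides included arrays of 1 time, 0.25 h, that differed in line. Within the selected line the 6 early arrays lay between -0.28 and -0.01 and the 6 late arrays between -0.12 and 0.13. In the nonselected line the early arrays lay between -0.13 and 0.17 and the late arrays between -0.02 and 0.13. For scale, the median deviation of all probe sets was -0.08 and 0.07 on the 0.25 h replicate 2 arrays of the selected and nonselected line.

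**Figure D5:**
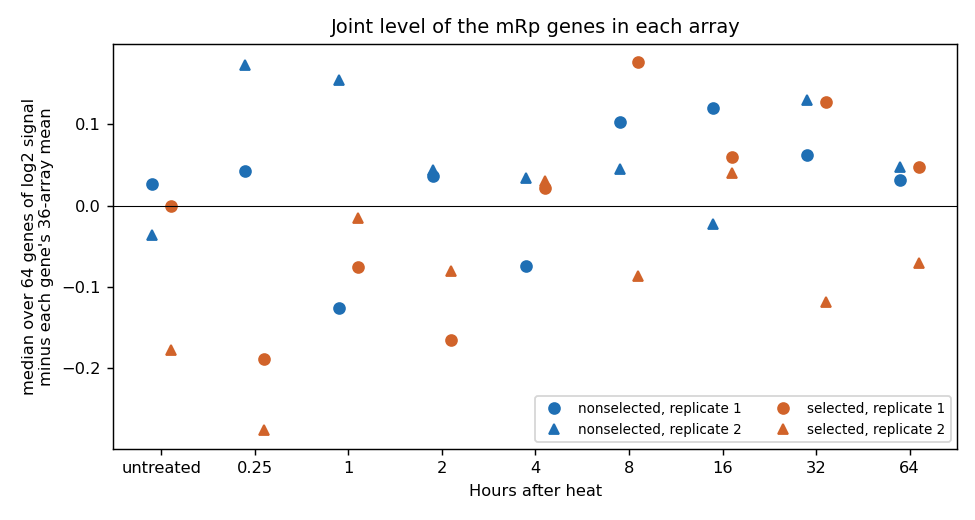
Median over the 64 mRp genes of the log2 deviation from each gene's 36-array mean (vertical axis) on every array, against hours after heat (horizontal axis, untreated first, evenly spaced), blue for the nonselected and orange for the selected line, circles for replicate 1 and triangles for replicate 2. The lowest array is selected replicate 2 at 0.25 h (-0.28) and the highest selected replicate 1 at 8 h (0.18).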

How the data were processed

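Per the labels, total RNA of whole adult females was biotin-labelled and hybridised to 1-colour arrays. Per the submitters' processing notes, the authors used GCRMA to make the deposited linear intensities; its version and settings are not given in the sources used here. GCRMA predicts background from probe sequence, which can compress or stretch differences of dim probe sets. Log2 of the deposited intensities was taken without a pseudocount, since all values were positive.

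Of 14010 probe sets 44 controls were left out. Of the other 13966, 12443 had 1 symbol and 327 several in GEO's platform annotation, and 12393 symbols were updated through Entrez identifiers with the RefSeq table of Release 6 plus ISO1 MT. Probe sets whose 4 highest arrays averaged under 5 in log2 (intensity 32) were filtered out, which left 8199. limma 3.58.1 in R 4.3.3 (lmFit, eBayes) fitted 18 group means over 36 arrays with 18 residual degrees of freedom, and Benjamini-Hochberg adjustment ran over all probe sets tested in a contrast, with a threshold of 0.05. A time was compared as the mean of both lines minus the mean of both untreated groups. The fit was tested on simulated data with independent noise and no shared replicate effect. Such data cannot test the p-values where arrays or genes are correlated. Pairs of identical arrays numbered 0, as did unused value columns.

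The mRp genes and related lists were chosen with earlier results of these data known. Any mRp gene could be named; levels by array were given for calls (the 4 largest where over 8) and for the 8 smallest F-test p, and other genes came from the lists, at most 4 per list and contrast. Exceptions are the genes of smallest p at single times and mRpL12, chosen after their values were seen. Alternatives were other filters, centring, repeated quantile normalization, trend and robust options, a replicate block, each replicate number alone and each array left out.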

Additional observations from a re-analysis of the deposited data

How the results depend on the processing

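No mRp gene was called at a single time in any of the 36 fits that left out 1 array, nor between untreated lines or for an interaction. The F-test count of 1 became 3 without a filter, after quantile normalization and with arrays centred, 2 with a stricter filter and with trend and robust options, and 1 to 2 with 1 array left out. The late count of 9 became 15 with arrays centred, where 1671 of all 8199 probe sets were higher and 1238 lower. It became 12 after quantile normalization (1438 of all probe sets higher and 1572 lower). It was 22 on replicate 1 arrays alone (49.8% of all probe sets) and 1 on replicate 2 arrays alone (16.5%). With 1 array left out it was 8 to 12. The line count of 6 became 2 after quantile normalization (488 of all probe sets higher and 323 lower) and 1 with arrays centred (664 and 222). It was 0 on replicate 1 arrays alone (7.1% of all probe sets) and 19 on replicate 2 arrays alone (36.3%). With 1 array left out it was 3 to 14. Shares of all probe sets for these F-tests and for fits with 1 array left out are not given here. The causes were not tested. Of the late genes mRpL40 lost its call in 8 of the 36 fits and mRpS22 in 1; of the line genes mRpL4 did so in 25, mRpL17 in 23 and mRpL16 in 1. None of these 9 late and 6 line genes changed direction in any setting run.

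The correlation of same-numbered deviations had a median of 0.33 over 153 pairs of groups. It was above 0.1 in 121 of them and ran from -0.43 to 0.78. Same-numbered arrays thus shared part of their deviations in most pairs of groups. The main fit had no term for the replicate number, so that part stayed in its residual variance. With the replicate number as a block, the F-test called 4 (25.2% of all probe sets), the 16 h comparison 1 (mRpS11; 4.87%), late against early 15 (48.6%), including all 9 named above, and the line comparison 18 (28.6%), including all 6.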
